A study of Mus musculus with 30 samples.

Results

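The 35 genes described here encode the subunits of heterotrimeric G proteins (13 alpha, 5 beta and 11 gamma subunits), the 4 protease-activated receptors through which thrombin and related proteases signal, and the 2 beta-arrestins. They were chosen by name from the count tables of both heart studies, with gene symbols from GENCODE, and selected on their mean count: a gene was carried into the comparison of a study where its mean reached at least 10 counts per heart. This left 23 of the 35 genes among 11985 genes tested in the peptide study and 24 among 12274 in the antibody study. The list was drawn up with earlier results of these hearts in view, so counts over it are given as a description beside the same counts over all genes.

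RNA was sequenced from the left ventricle of 30 wild-type male C57BL6J mice in 2 experiments that were run and tabulated separately. In the peptide study, 7 mice received Aβ42, the amyloid beta peptide of 42 residues, and 7 received ScrAβ42, its scrambled control sequence. Per the labels the peptide was injected intraperitoneally each day at 1 mg from 12 weeks of age for 4 weeks, whereas the methods of the study give a microgram dose. In the antibody study, 8 mice received 3D6, an antibody that neutralises Aβ, and 8 received a control antibody; the methods place these mice on a high-fat diet, while the deposited design states that they were also given Aβ42. Both comparisons asked how cardiac transcripts differed when Aβ42 was raised or neutralised.

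A heterotrimeric G protein sits on the inner face of the plasma membrane and is switched on when a receptor makes its alpha subunit exchange GDP for GTP. The alpha subunit then acts on its own effectors: Gs on adenylyl cyclase, Gi/o against it and Gq/11 on phospholipase C-beta, while the released beta-gamma pair acts on potassium channels, phosphoinositide 3-kinase and receptor kinases. Protease-activated receptors are opened by cleavage of their own N-terminus, and the receptor encoded by F2r is the main thrombin receptor of many cells of the vessel wall and of cardiac fibroblasts, where it couples to Gi/o, Gq/11 and G12/13. Beta-arrestins bind the phosphorylated receptor and uncouple it from the G protein.

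Gamma subunits hold the beta-gamma pair on the membrane by a lipid attached to a cysteine near their C-terminus. The coding ends of the 6 gamma subunits that reached the count minimum in either study are shown because this shared end, and not the level, is what makes them a family. Each line holds the last 24 coding bases including the stop codon, read 5′ to 3′ on the coding strand from GENCODE vM21 transcripts on GRCm38, with the codon of the lipid-bearing cysteine in capitals.
Gng2 (gene chr14:19872559-19977627, minus strand): aagttcttcTGCgccatcctttaa
Gng5 (chr3:146499807-146505572, plus strand): cagaaagtcTGCtcctttttgtag
Gng10 (chr4:59035088-59041903, plus strand): cccaggtccTGTgctctactttga
Gng11 (chr6:4003904-4008445, plus strand): aagggcagcTGTgtcatttcataa
Gng12 (chr6:66896397-67021350, plus strand): aagaagaccTGCatcatcttatag
Gngt2 (chr11:95837216-95845734, plus strand): aaaggcactTGTgtgctaagctga
The cysteine codon stood at the same place in all 11 gamma genes of the list, as TGC or TGT. The products of Gng11 and Gngt2 are known to carry a farnesyl group, and those of the other gamma genes shown a geranylgeranyl group.

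Total counts lay between 4997319 and 6015767 per heart with Aβ42, 4478991 and 5784589 with ScrAβ42, 6831339 and 8310481 with 3D6, and 6397191 and 7257841 with the control antibody. Cardiomyocyte markers were abundant in every heart, with a summed level of at least 39772 CPM (counts scaled to the size of the library). Some hearts stood apart by atrial markers, which a left ventricle should largely lack. The summed level of 5 of them (Sln, Myl7, Myl4, Bmp10 and Mybphl) ran from 12.4 to 8417 CPM with Aβ42 (median 1158) and from 3.82 to 3665 CPM with ScrAβ42 (median 10.5). In the antibody study it ran from 1.05 to 668 CPM with 3D6 (median 98.4) and from 0.821 to 2776 CPM with control antibody (median 2.88). A score was the mean of the standardised log2 CPM of those of these markers with a mean of at least 10 counts in the study. In the 3D6 group and in the control antibody group, 4 of the 5 markers reached that mean. The score was standardised within each study, so a value of 0 marks a different level of atrial markers in each. It was above 0 in 5 of 7 Aβ42, 1 of 7 ScrAβ42, 4 of 8 3D6 and 2 of 8 control hearts. The results on single genes that moved most with this score are given below with and without it, since the groups held unequal numbers of such hearts. In bulk tissue, a different share of a cell type and a different amount of transcript per cell cannot be told apart. Platelet markers, of interest because platelets carry thrombin receptors, were low throughout, with 6 markers summing to 4.39 to 31.4 CPM. Other markers also differed between the peptide groups. The 5 adipocyte markers summed to 0.397 to 633 CPM with Aβ42 (median 6.57) and 0.194 to 83.9 CPM with ScrAβ42 (median 0.874). The 5 red cell markers summed to 556 to 5073 CPM (median 1519) and 802 to 15945 CPM (median 3317). Medians were higher with Aβ42 for smooth muscle and pericyte (883 against 806 CPM) and macrophage markers (140 against 127 CPM). They were lower for endothelial (700 against 712 CPM) and fibroblast markers (700 against 740 CPM), all with overlap. In the antibody study, medians were lower with 3D6 than with control antibody for endothelial markers (641 against 708 CPM) and smooth muscle and pericyte markers (615 against 667 CPM). The same held for fibroblast (451 against 474 CPM) and macrophage markers (68.8 against 73.0 CPM), all with overlap. The platelet median, like the atrial one, was higher with 3D6 (7.76 against 7.16 CPM). The part of these markers in the results was not tested.

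Levels between genes were compared per length in the antibody study, whose table holds transcripts (TPM, counts scaled to transcript length and library size, mean ± SD over its 16 hearts). In this table each class of G protein subunit was led by 1 gene. Gnas, which encodes the stimulatory alpha subunit, stood at 569 ± 61.4 TPM and made up 69.6 ± 2.42% of all alpha transcripts. Gnai2, the main inhibitory subunit, followed at 125 ± 10.7 TPM, and Gna12, of the G12/13 class, at 66.8 ± 13.1 TPM. Gna11, a phospholipase C activator, was higher at 25.4 ± 1.89 TPM than its close relative Gnaq at 5.67 ± 0.962 TPM.

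Among beta subunits, Gnb2 held 63.2 ± 5.50% and Gnb1 25.9 ± 3.80% of the class, with levels of 108 ± 25.9 and 43.5 ± 6.10 TPM. Gng5 held 68.9 ± 2.79% of gamma transcripts at 110 ± 17.6 TPM, ahead of Gng11 at 22.4 ± 6.23 TPM, a gamma subunit known from endothelial cells. Gng2, the gamma subunit most often used to build beta-gamma pairs in the laboratory, was at 1.96 ± 2.10 TPM, an SD larger than its mean. Of the receptors, F2r (9.63 ± 2.83 TPM) supplied 91.7 ± 3.38% of transcripts, whereas F2rl1 (PAR2), F2rl2 (PAR3) and F2rl3 (PAR4, the receptor of mouse platelets) were at 0.348, 0.0570 and 0.430 TPM. Arrb2 and Arrb1 were close, at 6.67 ± 1.77 and 5.10 ± 0.891 TPM.

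The order was partly different in the peptide table, which holds genes (RPKM, counts scaled to gene length and library size, mean ± SD over its 14 hearts). There Gnai2 led the alpha subunits at 51.3 ± 3.62 RPKM, ahead of Gna12 at 40.5 ± 2.54 RPKM, and Gnas stood at 2.53 ± 0.557 RPKM. Gng11, at 18.3 ± 2.84 RPKM, stood above Gng5, at 8.84 ± 0.910 RPKM. Gnb2 led the beta subunits in both tables and was at 32.8 ± 1.73 RPKM here, with Gnb1 at 25.8 ± 2.22 RPKM. The leaders among alpha and gamma subunits thus differed between TPM in one table and RPKM in the other, which also differ in the lengths used. In CPM, without length scaling, Gng5 stood above Gng11 in the peptide study too. It was at 25.0 against 16.8 CPM with Aβ42 and 23.9 against 16.8 CPM with ScrAβ42. Gnas stayed below Gnai2 there, at 26.3 against 193 CPM with Aβ42 and 30.4 against 195 CPM with ScrAβ42.

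**Figure D1:**
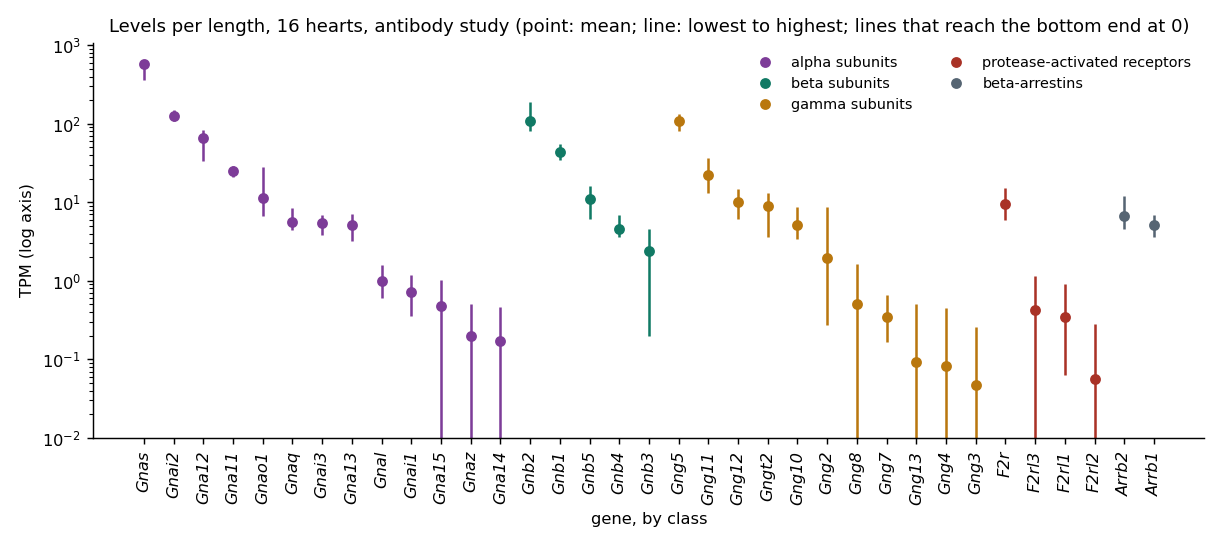
Level of each of the 35 genes in TPM on a log axis, by class, in the 16 hearts of the antibody study; points are means and lines run from the lowest to the highest heart. Gnas, Gnb2, Gng5 and F2r lead their classes, and the line of Gng2 spans from 0.277 to 8.77 TPM.

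Genes under the count minimum in both studies were Gnaz, Gna14, Gna15, Gng3, Gng4, Gng7, Gng8, Gng13, F2rl1, F2rl2 and F2rl3, and Gng10 fell under it in the peptide study only. In the peptide study the nearest gene inside was Gnal, with a mean of 21 counts, and the nearest outside was F2rl1, with 6.71. In the antibody study these were Gnai1, with 11.8 counts, and Gng7, with 6.06. A few genes were counted very differently by the 2 tables. Gnas averaged 151 counts per heart in the peptide table and 5135 in the antibody table, and Gng10 averaged 2.71 and 31.9. The source of this gap was not tested, and the peptide value of Gnas therefore rests on an uncertain count. Annotated processed copies of members (Gnb1-ps3, Gng2-ps1 and Gng5-ps) averaged under 1 count in both tables.

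With Aβ42, 16 of the 23 tested genes had a log2 fold change above 0 (50.5% of all genes tested had one), and their median was 0.062 against 0.0015 for all genes. None had an adjusted p under 0.05 in the quasi-likelihood test of edgeR, adjusted after Benjamini and Hochberg, nor did any of the 11985 genes (percent called 0), while DESeq2 called 12 genes, none of them on this list. At an unadjusted p under 0.05, which 6.51% of all genes reached (3.59% higher and 2.92% lower), a single member was found, Gng2. The groups overlapped for every member tested, compared with 0.0918% of all genes whose groups did not.

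With 3D6, 7 of 24 tested genes had a log2 fold change above 0 (47.3% of all genes tested), and the median was -0.072 against -0.0099 for all genes. Medians of several cell type markers also lay lower with 3D6, as given above. No gene had an adjusted p under 0.05 by edgeR (percent called 0) or by DESeq2. At an unadjusted p under 0.05, reached by 3.65% of genes in edgeR (1.32% higher and 2.33% lower) and by 450 genes in DESeq2, a single member was found by edgeR, Gnb4, and none by DESeq2. Counts of 1 in 23 and 1 in 24 in these fits are close to the share over all genes, so neither sets the list apart. Other settings gave other counts. With the atrial score as a covariate, Gnb4, Gng2 and F2r were under an unadjusted 0.05 with 3D6 (3.65% of all genes), and no member with Aβ42 (7.35%). Without ScrAbeta42_3448, 5 members were under it with Aβ42 (10.6% of all genes). The groups overlapped for every member here too (percent of all genes not overlapping 0).

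**Figure D2:**
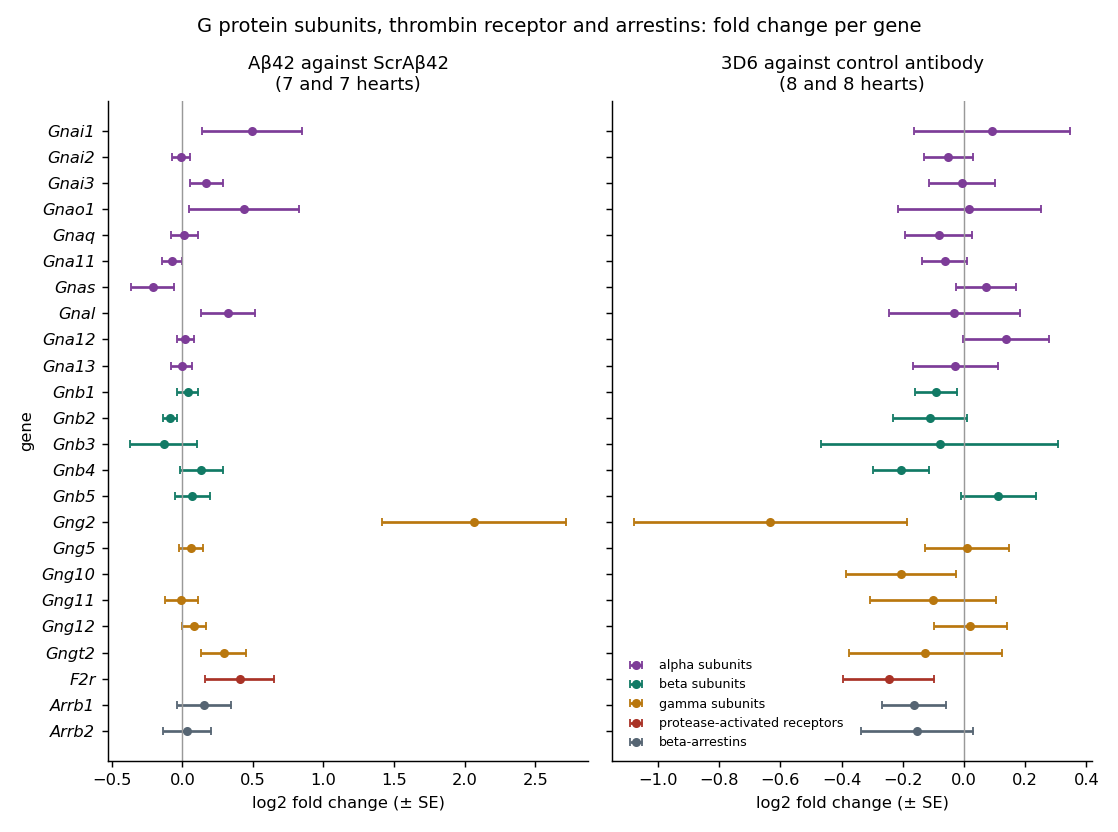
Log2 fold change (x axis, ± SE from edgeR) of each tested gene for Aβ42 against ScrAβ42 (left, 7 and 7 hearts) and 3D6 against control antibody (right, 8 and 8 hearts), coloured by class. Gng2 lies at 2.07 and -0.63 with wide errors, and the other genes lie between -0.25 and 0.50.

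By class, the alpha subunits were centred near 0 in both comparisons. Of 10 tested, 6 had a log2 fold change above 0 with Aβ42 (median 0.018) and 4 with 3D6 (median -0.017), and none had an unadjusted p under 0.05. Log2 fold changes of several widely expressed alpha subunits were small in the fits on group alone. Gnai2 had log2 fold changes of -0.0096 with Aβ42 and -0.051 with 3D6, Gna11 of -0.072 and -0.063, and Gnaq of 0.014 and -0.083. Gna13, which like Gna12 couples to thrombin receptors, stood at -0.0050 and -0.028. Among hearts with a score below 0, the Aβ42 values were 0.14 ± 0.10 for Gnai2 and 0.0043 ± 0.11 for Gna11. They were 0.20 ± 0.13 for Gnaq and -0.12 ± 0.10 for Gna13. Gnai3, a further inhibitory subunit, had 0.17 ± 0.12 with Aβ42 and -0.0063 ± 0.11 with 3D6, and the Aβ42 value was 0.00086 with the atrial score in the model and 0.12 among hearts with a score below 0.

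The alpha subunit with the smallest p in the peptide study was Gnal, a stimulatory subunit best known from olfactory neurons and striatum. It ranged from 3.72 to 6.31 CPM with Aβ42 (median 4.25) and from 1.97 to 4.67 CPM with ScrAβ42 (median 3.48). All 7 Aβ42 hearts lay above the control median, with overlap. The log2 fold change was 0.33 ± 0.19 (SE, n = 7 and 7; edgeR adjusted p = 0.804), and with 3D6 it was -0.031 ± 0.21. The Aβ42 value was 0.11 ± 0.20 with the atrial score in the model and 0.16 ± 0.30 among hearts with a score below 0, and the highest heart, Abeta42_3455, had the highest atrial score of the study. With 3D6 the smallest p among alpha subunits belonged to Gna12. Its level ran from 144 to 207.2 CPM with 3D6 (median 175) and from 88.4 to 218 CPM with control antibody (median 155), so that the 3D6 range lay inside the control range. Its log2 fold change was 0.14 ± 0.14 (SE, n = 8 and 8; edgeR adjusted p = 0.946), and it was 0.055 without Con_22 and 0.22 without Con_3.

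Gnao1 and Gnai1, both of the Gi/o class, had the largest log2 fold changes among alpha subunits in the peptide study but also the widest errors, 0.44 ± 0.39 and 0.50 ± 0.36. Gnao1 ranged from 24.5 to 127 CPM with Aβ42 (median 39.5) and from 26.0 to 110 CPM with ScrAβ42 (median 35.2). The high values came from 4 hearts, Abeta42_3455, Abeta42_3457, Abeta42_3458 and ScrAbeta42_3448 (hearts named by group and mouse as in the labels), and the other hearts ran from 24.5 to 39.5 CPM with Aβ42 and from 26.0 to 50.9 CPM with ScrAβ42. Leaving out any single heart gave a log2 fold change of Gnao1 between 0.15 and 0.83, and with the atrial score in the model it was -0.38 ± 0.21 (-0.13 ± 0.23 among hearts with a score below 0). Gnai1 reached 27.1 CPM in Abeta42_3457 and at most 11.5 CPM in any other heart, and its log2 fold change was -0.17 with the atrial score in the model. With 3D6, log2 fold changes were 0.016 ± 0.23 for Gnao1 and 0.092 ± 0.25 for Gnai1, and Con_15 was the highest heart for Gnao1, at 52.8 CPM against 16.97 to 23.1 CPM in the other 7 controls. Without Con_15, Gnao1 stood at 0.30 ± 0.17 and Gnai1 at 0.21 ± 0.26. Gnas had -0.21 ± 0.15 with Aβ42 and 0.072 ± 0.097 with 3D6.

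Beta subunits form the propeller that pairs tightly with gamma. Of 5 tested, 3 had a log2 fold change above 0 with Aβ42 (median 0.037) and 1 with 3D6 (median -0.092). Gnb4 had the smallest p in the antibody study. It ranged from 9.11 to 12.3 CPM with 3D6 (median 10.9) and from 10.8 to 14.6 CPM with control antibody (median 12.6). All 8 3D6 hearts lay below the control median, and the ranges overlapped between 10.8 and 12.3 CPM. For Gnb4 the log2 fold change was -0.21 ± 0.091 (SE, n = 8 and 8; edgeR adjusted p = 0.946). This difference is small, was under 0.05 only without adjustment, and did not reach that threshold in DESeq2. Its unadjusted p was over 0.05 in 6 of 16 edgeR fits that left out 1 heart. The log2 fold change stood at -0.21 ± 0.097 with the atrial score in the model and at -0.23 ± 0.13 among the 10 hearts with a score below 0. Gnb4 had 0.13 ± 0.15 with Aβ42.

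Gnb2, the most abundant beta subunit, had the smallest p of its class in the peptide study. Its level ran from 104 to 114 CPM with Aβ42 (median 108) and from 105 to 122 CPM with ScrAβ42 (median 116). All 7 Aβ42 hearts lay below the control median, although the ranges overlapped for most of their length. Its log2 fold change was -0.087 ± 0.051 (SE, n = 7 and 7; edgeR adjusted p = 0.804), and with 3D6 it was -0.11 ± 0.12. Gnb1, Gnb3 and Gnb5 had 0.037, -0.13 and 0.071 with Aβ42 and -0.092, -0.080 and 0.11 with 3D6, with none under an unadjusted p of 0.05.

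Gamma subunits included the gene that differed most. Of 5 tested in the peptide study, 4 had a log2 fold change above 0 (median 0.080), and of 6 in the antibody study, 2 had one (median -0.11). Gng2 ranged from 6.41 to 112 CPM with Aβ42 (median 21.7) and from 4.06 to 26.6 CPM with ScrAβ42 (median 6.0). In single Aβ42 hearts it was 112 CPM in Abeta42_3457, 63.4 CPM in Abeta42_3458, 46.8 CPM in Abeta42_3455, 21.7 CPM in Abeta42_3451, 8.33 CPM in Abeta42_3460, 7.12 CPM in Abeta42_3456 and 6.41 CPM in Abeta42_3452. Among ScrAβ42 hearts it was 26.6 CPM in ScrAbeta42_3448 and 4.06 to 8.81 CPM in the other 6. All 7 Aβ42 hearts lay above the control median and 3 lay above every control, while the other 4 sat within the range of the controls. The log2 fold change was 2.07 ± 0.65 (SE, n = 7 and 7; edgeR adjusted p = 0.643), and leaving out any single heart gave 1.49 to 2.66.

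Gng2 was mostly higher in hearts with high atrial markers, though its order did not follow the score in every heart. In the 6 peptide-study hearts with an atrial score above 0 it ran from 8.33 to 112 CPM (median 36.7), and in the other 8 from 4.06 to 8.81 CPM (median 6.21). In the 2 Aβ42 hearts with a score below 0 it was 6.41 and 7.12 CPM, inside the range of the 6 ScrAβ42 hearts of the same kind. With the score added to the model, its log2 fold change was 0.40 ± 0.39, and among the 8 hearts with a score below 0 it was 0.16 ± 0.28. Among antibody-study hearts, Gng2 ran from 3.05 to 16.2 CPM in the 6 hearts with a score above 0 and from 0.799 to 3.22 CPM in the other 10.

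**Figure D3:**
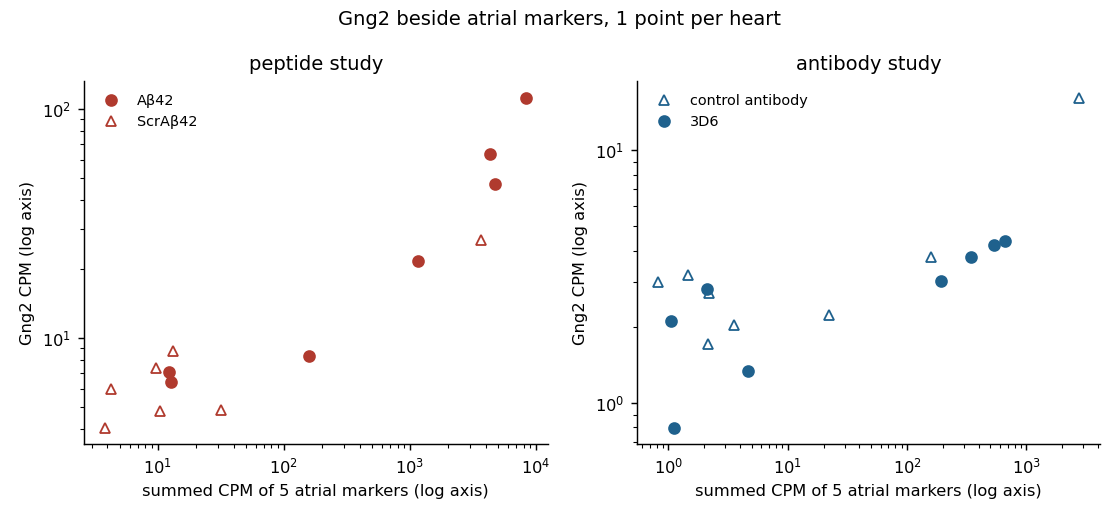
Gng2 (y axis, CPM, log scale) against the summed level of 5 atrial markers (x axis, CPM, log scale), 1 point per heart, for the peptide study (left) and antibody study (right). The Aβ42 hearts with Gng2 of 46.8, 63.4 and 112 CPM lie at the right end beside ScrAbeta42_3448, and Con_15 stands alone at 16.2 CPM in the antibody study.

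With 3D6, Gng2 ranged from 0.799 to 4.36 CPM (median 2.94) against 1.71 to 16.2 CPM with control antibody (median 2.87). The medians were nearly equal and a single control heart, Con_15, lay above all others. The log2 fold change was -0.63 ± 0.45 (SE, n = 8 and 8; edgeR adjusted p = 0.946). Without that heart it was 0.080 ± 0.29. With the atrial score in the model it was -0.72 ± 0.25, and among hearts with a score below 0 it was -0.48 ± 0.34.

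Gngt2, whose product was first described in cone photoreceptors, ranged from 6.88 to 11.6 CPM with Aβ42 (median 7.74) and from 4.85 to 9.38 CPM with ScrAβ42 (median 6.34). All 7 Aβ42 hearts lay above the control median, with overlap, and the highest, Abeta42_3452, was a heart with low atrial markers. Its log2 fold change was 0.29 ± 0.16 (SE, n = 7 and 7; edgeR adjusted p = 0.788). With the atrial score in the model it was 0.26 ± 0.19, and among hearts with a score below 0, of which 2 were Aβ42, it was 0.55 ± 0.24. With 3D6 it was -0.13 ± 0.25. In the fits on group alone, the abundant gamma subunits differed little. Log2 fold changes in the peptide and antibody studies were 0.062 and 0.011 for Gng5, -0.0067 and -0.10 for Gng11, and 0.080 and 0.020 for Gng12. With the atrial score in the model, the Aβ42 values were 0.15 ± 0.091 for Gng5, 0.14 ± 0.12 for Gng11 and -0.029 ± 0.089 for Gng12. Among hearts with a score below 0 they were 0.19 ± 0.13, 0.28 ± 0.15 and 0.017 ± 0.11. Gng10 had -0.21 ± 0.18 with 3D6. In the peptide study it stayed under the minimum, at 0.191 to 1.69 CPM with Aβ42 and 0 to 0.502 CPM with ScrAβ42, from at most 9 counts in any heart. Gng4, also under the minimum, was highest in ScrAbeta42_3448 (3.01 CPM), followed by Abeta42_3457 (2.75 CPM), Abeta42_3455 (2.29 CPM) and Abeta42_3458 (2.13 CPM).

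**Figure D4:**
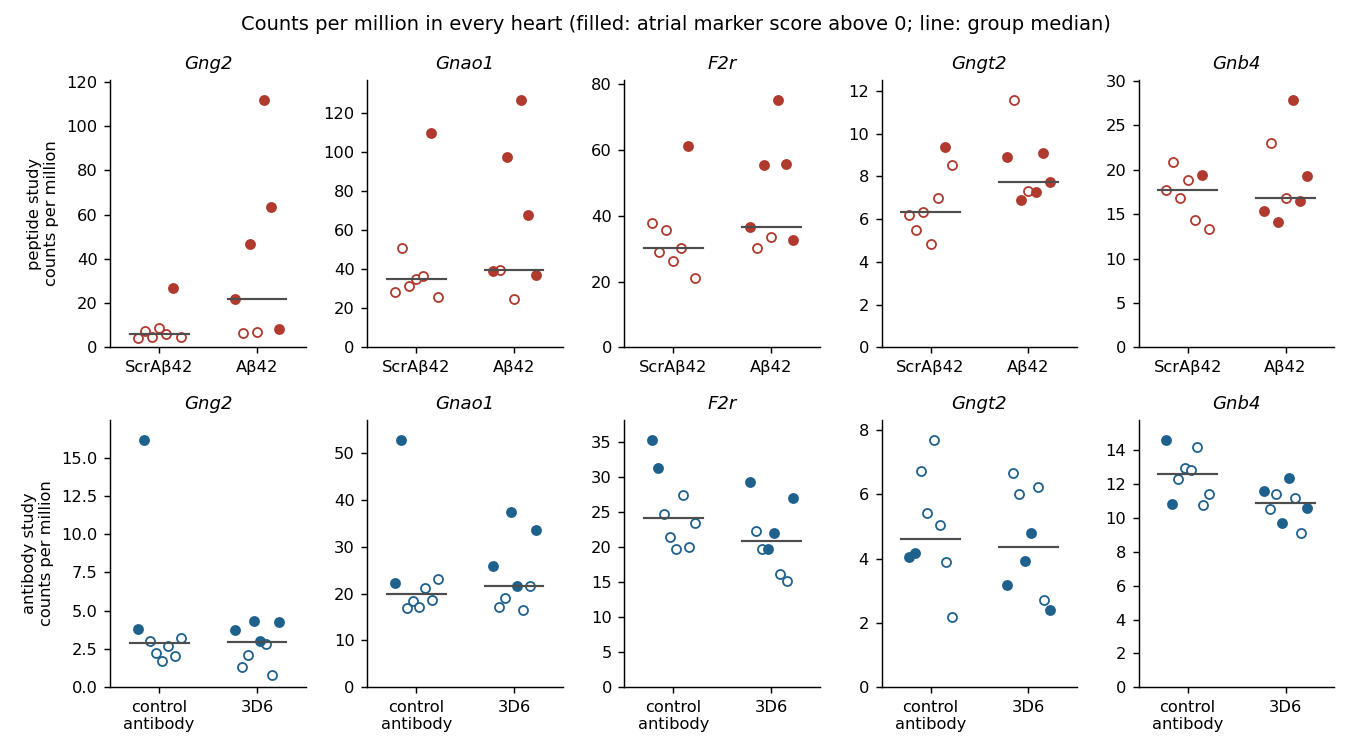
CPM of Gng2, Gnao1, F2r, Gngt2 and Gnb4 in each heart of the peptide study (top) and antibody study (bottom); filled points have an atrial marker score above 0, open points below 0, and lines are group medians. The highest hearts for Gng2, Gnao1 and F2r are filled points in both studies, whereas the high values of Gngt2 and Gnb4 in the peptide study fall on both kinds.

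Of the thrombin receptors, F2r alone reached the count minimum. It ranged from 30.2 to 75.4 CPM with Aβ42 (median 36.5) and from 21.1 to 61.3 CPM with ScrAβ42 (median 30.2). The 4 highest hearts were Abeta42_3457, Abeta42_3458, Abeta42_3455 and ScrAbeta42_3448, the same hearts that led for Gnao1 and Gng4. For F2r the log2 fold change was 0.41 ± 0.24 (SE, n = 7 and 7; edgeR adjusted p = 0.807), and leaving out any single heart gave 0.24 to 0.61. It was -0.056 ± 0.17 with the atrial score in the model and 0.096 ± 0.18 among hearts with a score below 0. With 3D6, F2r ranged from 15.2 to 29.3 CPM (median 20.9) against 19.7 to 35.3 CPM with control antibody (median 24.1). Here 6 of 8 3D6 hearts lay below the control median. Its log2 fold change was -0.25 ± 0.15 (SE, n = 8 and 8; edgeR adjusted p = 0.946). It was -0.33 ± 0.12 with the atrial score in the model and -0.31 ± 0.15 among hearts with a score below 0. F2rl1, F2rl2 and F2rl3 did not exceed 3.01 CPM in any heart and were not tested.

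Both beta-arrestins had a log2 fold change above 0 with Aβ42 and below 0 with 3D6. Arrb1 ranged from 32.8 to 65.1 CPM with Aβ42 (median 40.1) and from 29.6 to 67.7 CPM with ScrAβ42 (median 36.5), again with ScrAbeta42_3448 as the highest control. With 3D6 it ranged from 19.1 to 27.0 CPM (median 22.6) against 20.3 to 32.8 CPM (median 25.3). The log2 fold changes were 0.15 ± 0.19 (edgeR adjusted p = 0.927) and -0.16 ± 0.10 (adjusted p = 0.946). The Aβ42 value of Arrb1 was 0.037 without Abeta42_3457 and 0.33 without ScrAbeta42_3448. Arrb2 had 0.031 ± 0.17 and -0.15 ± 0.18, and neither sign held in every fit that left out 1 heart (-0.055 to 0.11 and -0.23 to 0.039). With the atrial score in the model, the Aβ42 values turned to -0.19 for Arrb1 and -0.15 for Arrb2, while among hearts with a score below 0 they were 0.030 and 0.050.

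Of the listed genes, 23 were tested in both studies. Opposite signs were found for 11 of 23 (47.8%), against 53.6% of the 11361 genes tested in both. Of these 11, 10 were higher with Aβ42 and lower with 3D6 (43.5% of members, 27.6% of all genes) and 1, Gnas, was the other way round. The remaining 12 were split evenly, 6 higher in both and 6 lower in both. Most of these signs belong to fold changes smaller than their SE.

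**Figure D5:**
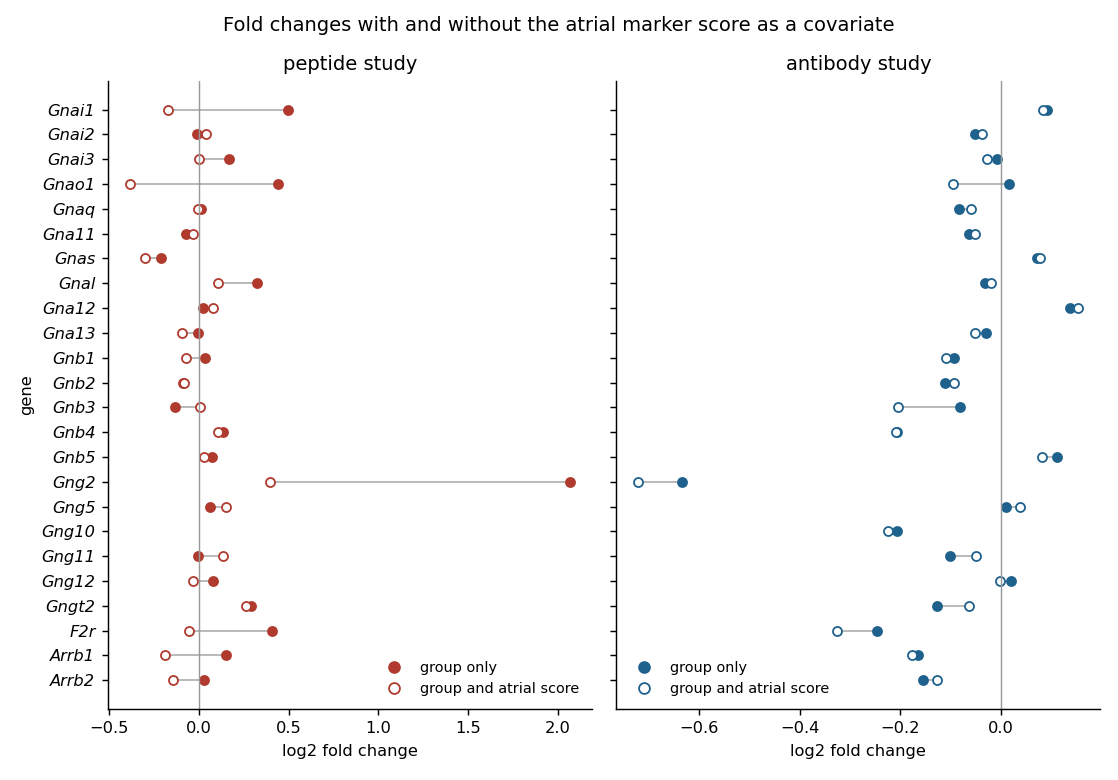
Log2 fold change (x axis) of each tested gene from a fit on group alone (filled) and on group plus atrial score (open), for the peptide study (left) and antibody study (right). Gng2 moves from 2.07 to 0.40 in the peptide study, and Gnao1, Gnai1 and F2r move from above 0 to below 0.

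Adding the atrial score changed the direction of 11 of 23 genes in the peptide study and of 2 of 24 in the antibody study. Members with a log2 fold change above 0 then numbered 11 and 5, against 5885 of 11985 and 5905 of 12274 over all genes. Among hearts with a score below 0 (2 Aβ42 and 6 ScrAβ42, 4 3D6 and 6 control), members above 0 numbered 16 and 10. Over all genes these were 5724 of 11677 and 5819 of 12224. In those hearts, 8 of 23 and 5 of 24 members changed direction. The part of atrial tissue in the peptide-study differences was not tested beyond these fits, since 5 of the 6 hearts with a score above 0 were from Aβ42 mice.

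The antibody table also resolved transcripts. Of 192 annotated transcripts of the listed genes, 40 of 23 genes reached the minimum, 14 with a log2 fold change above 0 and 26 below. No transcript had an adjusted p under 0.05 by edgeR (percent called 0), and 2 had an unadjusted p under 0.05, against 2.4% of all 20857 transcripts tested. Gnas was spread over Gnas-207, Gnas-208 and Gnas-206, which took 39.7 ± 3.20%, 36.7 ± 3.79% and 22.0 ± 1.68% of its counts and had log2 fold changes of 0.11, -0.0041 and 0.14. Gnb2-207, a minor protein-coding transcript, ranged from 2.13 to 4.11 CPM with 3D6 (median 2.43) and from 0.594 to 2.48 CPM with control antibody (median 1.26), a log2 fold change of 0.82 ± 0.32. Gnb1-208 was at 0 in all 8 3D6 hearts and in 7 of 8 controls, and at 26.0 CPM in Con_22, so its unadjusted p rested on that heart alone. Salmon divides reads that isoforms share, and estimates of such minor transcripts can shift between isoforms of a gene.

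The promoter of Gng2 is shown because this gene differed most between hearts, and that of F2r as the promoter of the thrombin receptor. Both run from 250 bases before to 50 after the RefSeq start on GRCm38.p6, on the strand of the gene. The GENCODE gene of Gng2 reaches further upstream, to base 19977627, so its window covers the RefSeq start and not that upstream end. Both windows were searched on both strands for the GATA factor motif AGATAA, the T-box motif AGGTGT, the TATA box motif TATAAA and the GC box motif GGGCGG, with matches in capitals.
Gng2 (chr14:19976644-19976943, minus strand): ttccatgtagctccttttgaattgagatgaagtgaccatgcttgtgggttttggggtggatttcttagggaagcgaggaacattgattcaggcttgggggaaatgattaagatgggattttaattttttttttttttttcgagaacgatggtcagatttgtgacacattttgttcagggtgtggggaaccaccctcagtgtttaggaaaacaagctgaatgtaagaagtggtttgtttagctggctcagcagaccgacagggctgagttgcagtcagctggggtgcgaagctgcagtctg
F2r (chr13:95618417-95618716, minus strand): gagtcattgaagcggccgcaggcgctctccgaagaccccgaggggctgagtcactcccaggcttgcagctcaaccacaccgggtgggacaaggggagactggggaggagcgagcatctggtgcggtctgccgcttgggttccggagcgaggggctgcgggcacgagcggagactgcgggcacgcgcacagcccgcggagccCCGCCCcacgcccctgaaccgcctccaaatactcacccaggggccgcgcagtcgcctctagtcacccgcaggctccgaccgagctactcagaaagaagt
The window of Gng2 held 44.7% G and C, 5 CpG and none of these letters, while that of F2r held 68.7% G and C, 28 CpG and 1 GC box. Among all 32851 promoters of that table, 11.2%, 13.7%, 13.6% and 35.7% held the motifs in the order named. Promoters were found for 25 of the 35 genes, and 12%, 16%, 8% and 64% of them held the motifs in that order. These are descriptions of sequence and say nothing about which factors act there.

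The wider pathway was read through 6 further lists (52 genes). In the peptide study 41 were tested and 5 had an unadjusted p under 0.05 (6.51% of all genes did), none with an adjusted p under 0.05, and in the antibody study 41 were tested and none reached even the former (3.65% of all genes did). Among effectors of Gq and G12/13, 13 of 13 were tested and 1 had p under 0.05 with Aβ42. This was Prkca, protein kinase C-alpha, at 23.7 ± 2.80 against 29.1 ± 5.06 CPM (log2 fold change -0.30 ± 0.11, edgeR adjusted p = 0.696). Its log2 fold change was -0.39 ± 0.12 with the atrial score in the model. Among hearts with a score below 0, of which 2 were Aβ42, it was -0.36 ± 0.18. With 3D6 it was 0.22 ± 0.16. Among beta-gamma effectors, 1 of 8 had p under 0.05 with Aβ42. This was Kcnj3, a subunit of the acetylcholine-gated potassium channel of atrial cells, at 137 ± 117.1 against 63.2 ± 32.6 CPM (1.12 ± 0.45, adjusted p = 0.712). Kcnj3 moved with the atrial markers: its log2 fold change was -0.10 ± 0.25 with the atrial score in the model and -0.18 ± 0.11 among hearts with a score below 0. Without Abeta42_3457 it was 0.65, no longer under an unadjusted p of 0.05. No receptor kinase (5 tested), chaperone or regulator of G proteins (7) or enzyme of prenylation and CaaX processing (6) reached p under 0.05 with Aβ42.

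Of 12 genes that generate or restrain thrombin, 4 reached the count minimum in the peptide study. An unadjusted p under 0.05 was found for 3 of them, 2 higher and 1 lower, against 3.59% and 2.92% of all genes, and none had an adjusted p under 0.05. Thbd, encoding the endothelial thrombin receptor thrombomodulin that redirects thrombin to protein C, was at 97.1 ± 9.52 against 116 ± 13.5 CPM (log2 fold change -0.26 ± 0.084, edgeR adjusted p = 0.656). Tfpi, the inhibitor of the tissue factor pathway, was at 108 ± 9.11 against 94.7 ± 7.86 CPM (0.20 ± 0.069, adjusted p = 0.693). F3, tissue factor itself, was at 28.3 ± 8.57 against 20.6 ± 4.48 CPM (0.46 ± 0.19, adjusted p = 0.715), and it was no longer under an unadjusted p of 0.05 in 6 of 14 fits that left out 1 heart. With the atrial score in the model these log2 fold changes were -0.28 ± 0.096 for Thbd, 0.16 ± 0.083 for Tfpi and 0.23 ± 0.19 for F3. Among hearts with a score below 0, of which 2 were Aβ42, they were -0.086 ± 0.11, 0.047 ± 0.098 and 0.26 ± 0.24. With 3D6, the log2 fold changes were -0.12 ± 0.093 for Thbd, 0.058 ± 0.14 for Tfpi and 0.074 ± 0.11 for F3. Prothrombin itself, F2, is made in liver and averaged under 1 count in both tables.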

How the data were processed

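Left ventricle RNA was sequenced by the authors after total RNA library preparation and quantified with Salmon (GRCm38; GENCODE vM24 per the study's methods). The authors deposited gene counts for the peptide study and estimated counts per transcript for the antibody study. Here, transcripts were summed to genes with GENCODE vM21 and rounded to whole counts; transcripts not listed there (0.38% of estimated counts) were kept as separate entries. In the peptide table, 1 column of counts had a name that fits none of the labels and was left out.

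Each study was tested separately with edgeR 4.0.16 in R 4.3.3 (TMM, mean of at least 10 counts per heart, quasi-likelihood test, two-sided, Benjamini-Hochberg adjustment over all genes tested, no covariate). SEs were taken as the absolute log2 fold change divided by the square root of F. The study's own tool, DESeq2 (1.42.0 here), was an alternative, with RLE size factors, no count filter, the atrial score as a covariate, each heart left out in turn and, chosen after seeing the data, the hearts with a score above 0 left out; pathway genes were put through the same alternatives after seeing the data. CPM used TMM-scaled totals, and TPM and RPKM used annotated lengths. The code was tested on simulated data. Members and lists were chosen with earlier results of these data known. Values by heart are given for members with an unadjusted p under 0.05 in either study and for the smallest p of each class in each study, and, chosen after their values were seen, for Gngt2, Gnao1, Gnai1, Gng4 and Gng10; the others, and pathway genes under that p, are given by fold change or mean. Titles give separate mouse numbers, so p-values measure the spread between these mice. Counts of 2 hearts of a group differed by more than sampling noise in every pair. Precision is limited by the 7 or 8 hearts per group and by the totals stated above.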

Additional observations from a re-analysis of the deposited data

Results flagged for a closer look

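In 94 sets of hearts (each tested gene in each group), 11 held a heart far from the others by Dixon's criterion, which by chance flags about 1 set in 20. In the peptide study these were Abeta42_3457 for Gnai3 (42.7 CPM, highest), Gng12 (40.5 CPM, highest) and Gna12 (119 CPM, lowest), Abeta42_3455 for Gnal (6.31 CPM, highest), and ScrAbeta42_3448 for Gnb1 (123 CPM), Gng2 (26.6 CPM) and Arrb1 (67.7 CPM), each the highest of its group. All 3 mice had an atrial marker score above 0. In the antibody study, Con_15, the control heart with the highest atrial score of that study, was highest for Gnao1 (52.8 CPM) and Gng2 (16.2 CPM). Con_22, also a control, with an atrial score below 0, was lowest for Gnas (476 CPM against 689 to 816 CPM in the other controls) and highest for Arrb2 (13.8 CPM against 4.46 to 7.66 CPM). The part of any of these hearts' tissue make-up in their values was not tested.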

How the results depend on the processing

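No paired analysis was possible because the groups compared share no mouse numbers. RLE size factors and DESeq2 kept the direction of every member in both studies. Calls of all genes in the peptide study numbered 12 by DESeq2 and 0 to 3 with a heart left out, and none by edgeR's other settings. Members with an unadjusted p under 0.05 numbered 0 with the atrial score as a covariate (7.35% of all genes), 1 without hearts with a score above 0 (Gngt2 in place of Gng2; 4.32%) and 1 to 5 with a heart left out in the peptide study (5 without ScrAbeta42_3448: Gnai3, Gnao1, Gng2, Gngt2 and F2r, with 10.6% of all genes). In the antibody study they numbered 0 by DESeq2 (3.67% of all genes), 0 without a count filter (4.83%), 0 without hearts with an atrial score above 0 (2.29%), 3 with the score as a covariate (Gnb4, Gng2 and F2r; 3.65%), and 0 to 2 with a heart left out. Over all genes, the fits with a heart left out gave 5.14% to 10.6% in the peptide study and 2.08% to 6.28% in the antibody study.

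Signs changed in the peptide study with the score as a covariate for Gnb1 (-0.072), Gnai1 (-0.17), Gng11 (0.14), Gng12 (-0.029), Gnb3 (0.0077), Arrb1 (-0.19), Gnao1 (-0.38), Gnai2 (0.039), Arrb2 (-0.15), F2r (-0.056) and Gnaq (-0.0029), and, with hearts with a score above 0 left out, for Gnb1 (-0.0066), Gnai1 (-0.21), Gna12 (-0.0027), Gng11 (0.28), Gnb3 (0.027), Gna11 (0.0043), Gnao1 (-0.13) and Gnai2 (0.14). Kcnj3 changed sign under both settings (-0.10 and -0.18). In the antibody study they changed for Gnai3 without a filter (0.0063), for Gnao1 (-0.094) and Gng12 (-0.00076) with the covariate, and without those hearts for Gnal (0.051), Gnao1 (-0.048), Gng11 (0.053), Gng10 (0.073) and Gngt2 (0.072). The cause was not tested.

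With each heart left out in turn, the sign also changed in at least 1 fit in the peptide study for Arrb2 (-0.055 to 0.11), Gna12 (-0.0055 to 0.057), Gna13 (-0.058 to 0.020), Gnai1 (-0.029 to 0.61), Gnai2 (-0.043 to 0.0083), Gnaq (-0.048 to 0.053), Gnb1 (-0.0015 to 0.067), Gng11 (-0.10 to 0.046), in the antibody study for Arrb2 (-0.23 to 0.039), Gna13 (-0.083 to 0.067), Gnai1 (-0.0082 to 0.26), Gnai3 (-0.057 to 0.037), Gnal (-0.13 to 0.11), Gnao1 (-0.10 to 0.30), Gnaq (-0.12 to 0.019), Gnb3 (-0.32 to 0.095), Gng11 (-0.23 to 0.039), Gng12 (-0.038 to 0.088), Gng2 (-0.75 to 0.080), Gng5 (-0.048 to 0.084), for Kcnj3 (-0.0054 to 0.48) and Tfpi (-0.016 to 0.12) in the antibody study, and for the transcript Gnas-208 (-0.041 to 0.034).

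The atrial score was unequally spread over the Aβ42 and ScrAβ42 groups, so a fit with both rests on few hearts. At these totals, 11 listed genes were under the minimum in both studies, and no statement on a difference is made for them. Fold changes near 0 changed sign readily and carry no direction.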
